A study of Mus musculus with 8 samples.

Results

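The genes of antigen presentation and of the interferon response were followed in mouse pluripotent cells of 2 states. Members were all entries whose symbol is that of an H2 gene (the mouse major histocompatibility complex), a named partner of class I presentation (B2m, Tap1, Tap2, Tapbp, Erap1, Nlrc5), an interferon receptor, a STAT gene of the interferon pathway, an interferon regulatory factor (Irf), a nucleic acid or Toll-like sensor, or an Ifit, Ifitm, Oas or Mx gene, Isg15 or Isg20. This gave 102 members among 22987 genes at 1 locus, chosen by symbol and not by level. Of these, 51 reached at least 1 FPKM in at least 4 libraries and entered the test, and 51 did not. FPKM is a level per transcript length, in which the fragments of a gene are corrected for the depth of the library.

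RNA-seq of polyadenylated RNA was made from epiblast stem cells (mEpiSC), the primed state, and embryonic stem cells (mESC), the naive state, with 4 libraries each. The mEpiSC came from the lines EpiSC5 (mEpiSC 1), EpiSC7 (mEpiSC 2 and mEpiSC 3) and EpiSC9 (mEpiSC 4), grown with FGF2, and the mESC from ESF175/1 (mESC 3 and mESC 4) and ESF122 (mESC 1 and mESC 2), grown with LIF. Both states had serum replacement and a feeder layer of irradiated fibroblasts that was removed before RNA extraction, and no interferon treatment is named. Strain and sex of the lines have not been stated in the labels. Whether mEpiSC 2 and mEpiSC 3, or the paired libraries of either mESC line, were separate cultures is also unstated, so a p-value reflects only how far these libraries spread, possibly for technical reasons. Values below are deposited FPKM, means are ± SD with n = 4 per state, and changes are mEpiSC minus mESC on the log2(FPKM + 1) scale, which understates the change of low genes. They were tested with limma over 11556 genes at a Benjamini-Hochberg adjusted p under 0.05. Fits named with 1 mean per line take their error from the spread between libraries of the same line alone. Differences between lines are not in that error, so such a fit is not stricter than the main one.

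The depth implied by the deposited intervals was 24.8 to 38.6 M fragments per library. Naive markers were low in mEpiSC and high in mESC, with summed levels of 4.50 to 7.74 and 471 to 860.4 FPKM over 6 genes, as the labels state. The replicate 4 libraries stood apart on the second principal component (16.9% of the variance), with scores of 48.9 in mEpiSC 4 and 33.5 in mESC 4 against −20.6 to −8.85 in the other 6. Of 17 fibroblast markers, 15 were tested, 6 were higher and none was lower in mEpiSC. Their summed level was 105 to 597 FPKM in mEpiSC and 8.79 to 306 FPKM in mESC, where mESC 1 was highest and mESC 4 lowest. A fit with their mean level as a covariate is given beside each call it changed and each called change it moved by over 1.5 times. Of 9 blood cell markers, 7 were under 1 FPKM in every library, Ptprc at no more than 0.0200 FPKM. Laptm5, the only one of them tested, was called lower in mEpiSC, at 1.03, 1.34, 2.28 and 1.09 FPKM in mEpiSC 1 to 4, against 13.4, 4.01, 19.6 and 11.5 FPKM in mESC 1 to 4. All 4 tested endoderm markers were higher in mEpiSC, beside 23.1% of all tested genes. Of these Gata6 and Sox17 reached 1 FPKM in mEpiSC alone and so passed the filter through that state. Pdgfra is also on the fibroblast list. Amn, untested, was at 0.0853 to 0.579 FPKM in mEpiSC and 0.455 to 2.03 FPKM in mESC. The endoderm list stood apart in mEpiSC 1, the library of EpiSC5, with a summed level of 79.1 FPKM. It summed to 12.9 to 20.4 FPKM in mEpiSC 2 to 4 and 3.501 to 6.00 FPKM in mESC. In bulk RNA, fewer cells of a type and less RNA per cell cannot be told apart.

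As background, class I molecules carry peptides of the cell's own proteins to the surface for cytotoxic T cells and natural killer cells. A heavy chain pairs with the light chain B2m and is loaded in the endoplasmic reticulum with peptides that the proteasome cuts, Tap1 and Tap2 carry in and Erap1 trims. Interferons bind receptor pairs (Ifnar1 with Ifnar2, Ifngr1 with Ifngr2) that act through Jak kinases on STAT proteins. Of these Stat2 joins Irf9 in a factor that binds the interferon-stimulated response element and raises antiviral effectors. Pluripotent cells are known for low class I levels and a weak response to interferon.

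Most class I heavy chains and assembly factors and all 4 interferon receptor chains rose in mEpiSC, whereas 5 Oas and Oasl genes and the sensors Ddx58 and Tlr2 fell. The class II chain H2-Ab1, Irf2 and Ifit2 also rose, and Irf9 and the class I relative H2-M5 also fell. In all 19 of the 51 tested members were higher in mEpiSC (37.3%), beside 23.1% of all tested genes, and 9 were lower (17.6%), beside 14.2%. After median ratio scaling 17 were higher and 9 lower, beside 19.8% and 19.0% of all tested genes. By group, 8 of 12 class I heavy chains and relatives were higher and 1 lower, 4 of 5 assembly factors were higher, and 4 of the 6 receptors and STATs were higher. Among 15 effectors 1 was higher and 5 were lower, and 2 of 3 sensors were lower. The median change was 0.52 over the tested members and 0.08 over all tested genes. It was 1.39 for the heavy chains, 1.45 for the assembly factors, 0.69 for receptors and STATs, −0.03 for the Irf genes and −0.04 for the effectors. Values of the states did not overlap for 16 members that were higher in mEpiSC and 7 that were lower, beside 22.2% and 14.9% of all tested genes. Of the tested members, 4 reached 1 FPKM in mEpiSC alone (H2-Q6, H2-Q7, H2-Ab1 and Irf2) and 3 in mESC alone (H2-M5, Oas1c and Oasl1). Those 7 passed the filter through the state in which they were high, so the counts over tested members are a description.

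**Figure D1:**
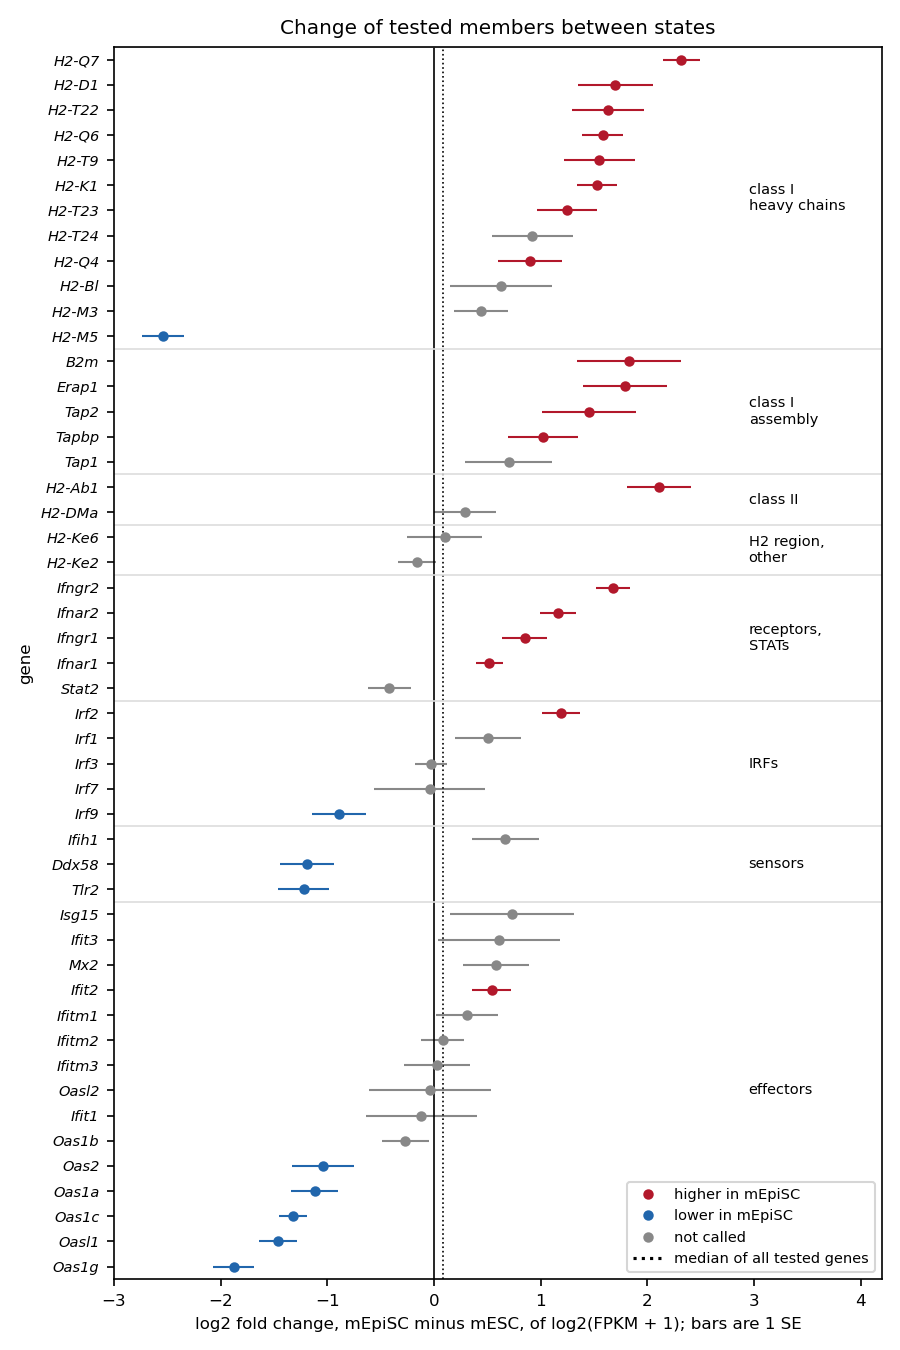
Change of tested members between states. Each point is the log2 fold change of log2(FPKM + 1), mEpiSC minus mESC (4 libraries each), with 1 SE, sorted within roles; red and blue mark a limma adjusted p under 0.05. Heavy chains and assembly factors lie right of 0 except H2-M5 at −2.54, and the Oas genes lie left of it.

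Promoter windows (250 bases before to 50 after the start, RefSeq, GRCm38.p6, a later build than the mm9 of the values) were found for 80 members by symbol. They were searched on both strands for the interferon-stimulated response element core GAAANNGAAA, the gamma-activated site TTCNNNGAA and a kappaB motif. The response element core was in a window of 19 of 80 members (23.8%) and of 3.99% of the 27025 genes searched. A chromosome without members was left out of that search. Members of every call held it: 5 of 16 higher, 4 of 8 lower and 7 of 17 tested but uncalled. The gamma-activated site was in 20.0% of members and 9.55% of the genes searched. A kappaB match was in 27.5% of members, in 10 of the 16 higher ones, and in 9.55% of the genes searched. Heavy chain genes are related in sequence and not independent. Windows of a gene that rose (B2m), of a pair that fell (Oas1a and Oas1g) and of an uncalled gene (Isg15) are shown 5′ to 3′ on the gene's strand, with response element cores in capitals.
B2m (GRCm38.p6, chr2:122147437-122147736, plus strand): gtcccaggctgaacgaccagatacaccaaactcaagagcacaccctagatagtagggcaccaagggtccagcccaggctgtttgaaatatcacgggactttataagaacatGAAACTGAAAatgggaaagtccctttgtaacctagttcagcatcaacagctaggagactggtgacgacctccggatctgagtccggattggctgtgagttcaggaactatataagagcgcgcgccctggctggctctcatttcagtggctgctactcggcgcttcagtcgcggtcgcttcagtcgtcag
Oas1a (GRCm38.p6, chr5:120907476-120907775, minus strand): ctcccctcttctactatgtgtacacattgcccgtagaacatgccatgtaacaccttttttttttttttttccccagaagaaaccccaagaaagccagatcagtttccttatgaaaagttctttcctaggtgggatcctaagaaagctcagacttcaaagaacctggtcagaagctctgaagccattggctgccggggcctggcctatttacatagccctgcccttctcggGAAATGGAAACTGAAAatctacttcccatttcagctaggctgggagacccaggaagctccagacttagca
Oas1g (GRCm38.p6, chr5:120887564-120887863, minus strand): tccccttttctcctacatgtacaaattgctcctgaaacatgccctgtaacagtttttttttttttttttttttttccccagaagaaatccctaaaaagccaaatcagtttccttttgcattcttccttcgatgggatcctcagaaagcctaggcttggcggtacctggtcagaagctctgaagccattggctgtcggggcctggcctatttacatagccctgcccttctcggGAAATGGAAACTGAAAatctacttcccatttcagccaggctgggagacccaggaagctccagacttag
Isg15 (GRCm38.p6, chr4:156200769-156201068, minus strand): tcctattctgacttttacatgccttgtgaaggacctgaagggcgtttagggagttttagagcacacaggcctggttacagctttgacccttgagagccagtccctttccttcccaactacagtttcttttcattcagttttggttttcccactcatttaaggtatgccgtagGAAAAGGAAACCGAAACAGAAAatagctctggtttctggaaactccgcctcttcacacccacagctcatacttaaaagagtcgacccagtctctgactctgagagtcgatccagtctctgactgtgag
B2m has 1 core, starting at −139 from the transcript start. Oas1a and Oas1g each have 2 overlapping cores, starting at −20 and −14 in Oas1a and at −18 and −12 in Oas1g, and their windows are identical at 207 of 298 bases (69.5%) when shifted by 2. Isg15 has 3 overlapping cores, the first at −78. A match is a stretch of letters and was not tested as a binding site.

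The classical pair H2-K1 and H2-D1 had the highest mean levels of the heavy chains in mEpiSC. H2-K1 (chromosome 17, 34132957 to 34137278 on mm9), a classical heavy chain, was at 49.4, 59.3, 59.0 and 48.1 FPKM in mEpiSC 1 to 4, against 23.01, 20.9, 12.4 and 17.3 FPKM in mESC 1 to 4. Every mEpiSC library lay above every mESC library, by more than the whole mESC range. The mean was 54.0 ± 6.04 FPKM in mEpiSC and 18.4 ± 4.63 FPKM in mESC (log2 1.53, SE 0.19, adjusted p = 0.00052). H2-D1, the other classical heavy chain, was at 39.3, 36.1, 32.4 and 23.4 FPKM in mEpiSC 1 to 4, against 21.3, 6.00, 8.77 and 6.28 FPKM in mESC 1 to 4. The states did not overlap, but mESC 1 came close to mEpiSC 4 (log2 1.70, SE 0.35, adjusted p = 0.006). With fibroblast markers as a covariate the change of H2-D1 was log2 0.90 (adjusted p = 0.025). The 30 heavy chain entries together summed to 138 to 154 FPKM in mEpiSC and 44.0 to 76.2 FPKM in mESC.

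The Q and T genes, relatives of the classical chains that include ligands of natural killer cells and of gamma-delta T cells, had lower levels, and 6 of them were called higher. H2-Q7, which encodes a Qa-2 antigen, was at 6.25, 6.54, 6.01 and 4.61 FPKM in mEpiSC 1 to 4, against 0.482, 0.0731, 0.449 and 0.506 FPKM in mESC 1 to 4. The mESC values rest on 4 to 19 implied fragments each and the mEpiSC values on 242 to 317 (log2 2.32, SE 0.17, adjusted p = 3.7e-05). H2-Q6, its close relative, was at 3.44, 3.01, 2.44 and 2.09 FPKM in mEpiSC 1 to 4, against 0.640, 0.0341, 0.225 and 0.153 FPKM in mESC 1 to 4 (log2 1.58, SE 0.19, adjusted p = 0.00049). Both genes were above 2 FPKM in every mEpiSC library and below 1 FPKM in every mESC library. H2-T23 encodes Qa-1, which natural killer cells read, and was at 4.44, 2.71, 3.83 and 1.41 FPKM in mEpiSC 1 to 4, against 1.07, 0.932, 0.457 and 0.266 FPKM in mESC 1 to 4 (log2 1.25, SE 0.28, adjusted p = 0.0078; adjusted p = 0.075 with the fibroblast covariate). H2-T22, known as a ligand of some gamma-delta T cells, was at 7.08, 9.22, 5.73 and 8.02 FPKM in mEpiSC 1 to 4, against 1.79, 4.40, 1.24 and 0.604 FPKM in mESC 1 to 4 (log2 1.63, SE 0.34, adjusted p = 0.0057). H2-T9 lies on the same interval as H2-T22 and was at 4.77, 5.65, 8.06 and 10.4997 FPKM in mEpiSC 1 to 4, against 2.48, 3.31, 0.686 and 1.14 FPKM in mESC 1 to 4 (log2 1.55, SE 0.33, adjusted p = 0.0066); reads of these overlapping entries cannot be told apart with certainty. These 5 genes were higher in all 4 mEpiSC libraries than in any mESC library. H2-T23 in mEpiSC 4, at 1.41 FPKM, came close to the 1.07 FPKM of mESC 1.

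H2-Q4 was at 13.6, 16.998, 16.6 and 19.2 FPKM in mEpiSC 1 to 4, against 13.0, 11.6, 7.98 and 3.90 FPKM in mESC 1 to 4, where mEpiSC 1 and mESC 1 were nearly level (log2 0.90, SE 0.30, adjusted p = 0.045). Its call was lost with the replicate number as a block (adjusted p = 0.06), without both replicate 4 libraries (0.058), and without mESC 3 or any 1 mEpiSC library (up to 0.1). It was also lost with fibroblast markers as a covariate (0.31), after median ratio scaling (0.066) and with a random block per line (0.097). H2-T24 was at 3.22, 3.08, 2.86 and 0.375 FPKM in mEpiSC 1 to 4, against 0.956, 1.14, 0.568 and 0.0914 FPKM in mESC 1 to 4, high in 3 mEpiSC libraries and at the mESC level in mEpiSC 4 (adjusted p = 0.088). With the replicate block its adjusted p was 0.013, without both replicate 4 libraries 0.0025, without mEpiSC 4 alone 0.0034, and with 1 mean per line 0.0055. H2-Bl was at 1.92, 4.91, 3.68 and 16.3 FPKM in mEpiSC 1 to 4, against 2.38, 4.61, 2.05 and 3.18 FPKM in mESC 1 to 4, with mEpiSC 4 far above the mESC range, mEpiSC 2 just above it and mEpiSC 1 just below it (adjusted p = 0.34; 0.031 with 1 mean per line). H2-M3, which presents formylated bacterial peptides, averaged 1.92 ± 1.08 FPKM in mEpiSC and 1.06 ± 0.259 FPKM in mESC (adjusted p = 0.19; 0.038 with 1 mean per line). Heavy chain genes share sequence: of 50-base windows of their transcripts, 9.63% for H2-K1, 12.8% for H2-D1, 32.0% for H2-Q6, 26.4% for H2-Q7 and 34.5% for H2-T22 also occur in another gene, so levels of single Q and T genes are uncertain. By position, 99.7% of H2-Q7 lies on H2-Q9, 39.0% of H2-D1 on LOC547349, and H2-T23 and H2-T24 lie within A930015D03Rik.

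H2-M5 went the other way. It was at 0.310, 0.221, 0.249 and 0.113 FPKM in mEpiSC 1 to 4, against 5.29, 4.15, 7.58 and 8.10 FPKM in mESC 1 to 4, above 4 FPKM in each mESC library and near 0 in each mEpiSC library (log2 −2.54, SE 0.20, adjusted p = 5.3e-05). This class I relative (chromosome 17, 37123800 to 37126449) shares only 0.886% of its windows with other genes. H2-T3, untested, had the same order, at 0 to 0.0186 FPKM in mEpiSC and 0.256 to 0.537 FPKM in mESC.

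Of the 5 tested genes of assembly and peptide supply, 4 rose. B2m, the light chain (chromosome 2, 121973423 to 121978818), was at 169.7, 143, 105 and 113 FPKM in mEpiSC 1 to 4, against 93.3, 41.8, 31.6 and 13.1 FPKM in mESC 1 to 4. All mEpiSC values were above all mESC values, but the mESC libraries themselves spread widely, with mESC 1 highest and mESC 4 lowest (133 ± 29.5 FPKM in mEpiSC and 44.95 ± 34.3 FPKM in mESC; log2 1.83, SE 0.49, adjusted p = 0.017). Fibroblast markers had the same highest and lowest mESC library, and with their mean as a covariate B2m was at log2 0.74 (adjusted p = 0.12), while H2-K1 was at log2 1.39 (0.0064) and H2-D1 at the value given above. Fitted without a filter on low values, B2m was not called either. The B2m entry lies wholly within the interval of Patl2, and whether reads were counted by strand is not given in the sources used here. The ratio of B2m to the sum of H2-K1 and H2-D1, per length, was 1.15 to 1.91 in mEpiSC and 1.49 to 2.10 in mESC 1 to 3, against 0.555 in mESC 4.

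Erap1, the peptidase that trims peptides to length, was at 9.58, 15.97, 7.94 and 15.1 FPKM in mEpiSC 1 to 4, against 2.85, 6.83, 1.60 and 1.32 FPKM in mESC 1 to 4, without overlap between states (log2 1.79, SE 0.39, adjusted p = 0.0069). Tapbp (tapasin), which holds the heavy chain at the transporter, was at 23.4, 26.5, 19.6 and 35.3 FPKM in mEpiSC 1 to 4, against 16.6, 21.02, 9.05 and 6.67 FPKM in mESC 1 to 4. Its lowest mEpiSC value fell below its highest mESC value (log2 1.02, SE 0.33, adjusted p = 0.039). Tap2, a transporter subunit, was at 4.92, 8.58, 4.18 and 12.9 FPKM in mEpiSC 1 to 4, against 2.65, 4.83, 0.974 and 0.736 FPKM in mESC 1 to 4, again with overlap through mESC 2 (log2 1.45, SE 0.44, adjusted p = 0.029). The call of Tapbp was lost without mESC 3, mESC 4, mEpiSC 1, mEpiSC 2 or mEpiSC 4, and that of Tap2 without mESC 3, mESC 4, mEpiSC 2 or mEpiSC 4 (adjusted p up to 0.1 and 0.083). Without both replicate 4 libraries the calls of Tapbp and Tap2 were lost (adjusted p = 0.12 and 0.11), as they were with fibroblast markers as a covariate (0.22 and 0.12) and with a random block per line (0.06 and 0.059). Tap1, the other subunit, was at 3.99, 5.46, 3.73 and 14.8 FPKM in mEpiSC 1 to 4, against 4.58, 5.32, 2.21 and 2.04 FPKM in mESC 1 to 4; mEpiSC 4 was high, and the other 3 mEpiSC libraries lay within the mESC range or just above it (adjusted p = 0.21; 0.004 with 1 mean per line). With a random block per line the limma adjusted p of Tap1 was 0.25. Nlrc5, the class I transactivator, was below the filter at 0.299, 0.169, 0.0863 and 0.143 FPKM in mEpiSC 1 to 4, against 0.237, 0.143, 0.112 and 0.0605 FPKM in mESC 1 to 4, and the states overlapped.

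Class II chains, which present peptides to helper T cells and are normally made by specialised cells, were at low levels. H2-Ab1, a beta chain, was at 2.12, 4.01, 5.52 and 8.35 FPKM in mEpiSC 1 to 4, against 0.178, 0.221, 0.258 and 0.496 FPKM in mESC 1 to 4. It was higher in each mEpiSC library, most in EpiSC9 and least in EpiSC5 (log2 2.11, SE 0.30, adjusted p = 0.0011), with 8 to 20 implied fragments behind the mESC values. Its alpha chain partner H2-Aa reached no more than 0.267 FPKM and the class II invariant chain Cd74, no member, averaged 0.380 ± 0.427 FPKM in mEpiSC and 0.628 ± 0.115 FPKM in mESC. H2-Oa, untested and within the interval of BC051537, was at 0.965, 1.53, 3.33 and 2.45 FPKM in mEpiSC 1 to 4, against 0.192, 0.340, 0.192 and 0.529 FPKM in mESC 1 to 4. H2-DMa, a class II peptide loading chain, averaged 2.02 ± 1.47 FPKM in mEpiSC and 1.32 ± 0.430 FPKM in mESC (adjusted p = 0.47). H2-Ke2, also named Pfdn6 and a chaperone subunit, and H2-Ke6, a steroid dehydrogenase, carry the H2 prefix but do not present antigen. H2-Ke2 averaged 66.0 ± 10.06 FPKM in mEpiSC and 74.5 ± 16.8 FPKM in mESC (adjusted p = 0.54). H2-Ke6 averaged 10.9 ± 7.24 FPKM in mEpiSC and 8.997 ± 1.92 FPKM in mESC (adjusted p = 0.85).

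The 45 members on chromosome 17 span 34056423 to 37620474 on mm9. Of the 19 tested there 11 were higher and 1 lower in mEpiSC, beside 23.1% and 14.2% of all tested genes. The 11 include H2-T22 and H2-T9, which lie on the same interval, and Q genes that share sequence, so they are not independent. H2-M5 and the uncalled H2-Bl and H2-M3 have the highest coordinates of the tested members there, and the higher ones extend from Tapbp to H2-T22, with uncalled genes between them.

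**Figure D2:**
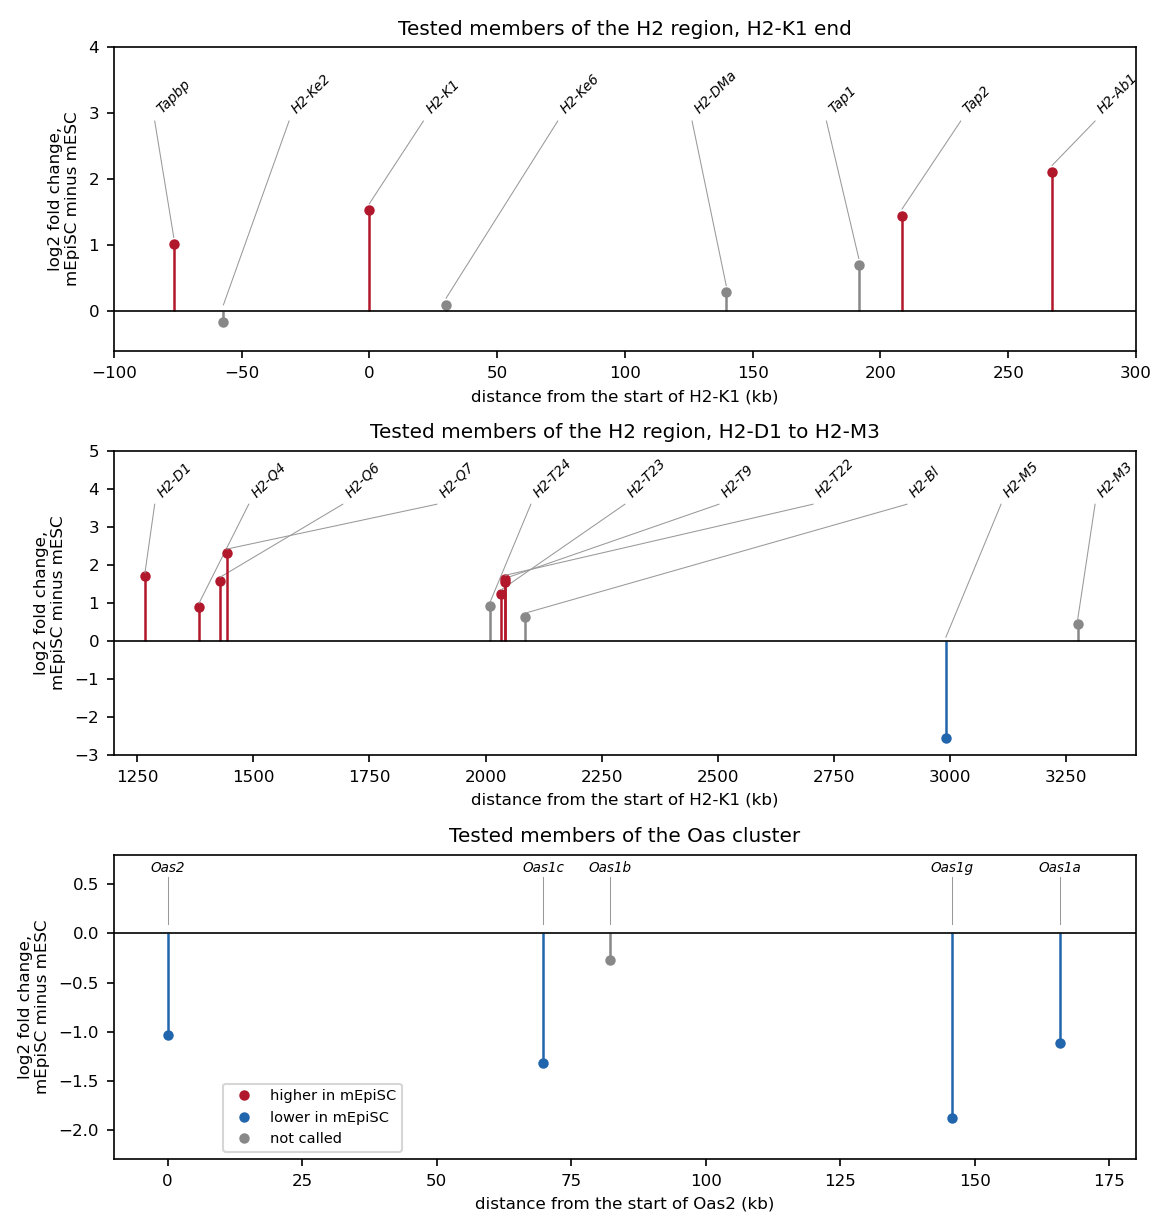
Log2 fold changes (mEpiSC minus mESC) of tested members by distance in kb from the start of H2-K1 (upper panels) and of Oas2 (lower panel), drawn to scale with colours for the limma call. H2-M5 at −2.54 stands against 11 higher members of the H2 region, and 4 of 5 Oas genes are lower. Over all tested genes 23.1% were higher and 14.2% lower.

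All interferon receptor chains were higher in mEpiSC. Ifngr2, a chain of the interferon gamma receptor, was at 6.13, 7.503, 9.01 and 7.32 FPKM in mEpiSC 1 to 4, against 2.18, 1.71, 1.39 and 1.32 FPKM in mESC 1 to 4 (log2 1.68, SE 0.16, adjusted p = 0.00018). Ifnar2, of the type I receptor, was at 9.69, 10.33, 11.3 and 16.6 FPKM in mEpiSC 1 to 4, against 5.11, 4.51, 4.18 and 4.98 FPKM in mESC 1 to 4, highest in EpiSC9 (log2 1.16, SE 0.17, adjusted p = 0.0012). For both, the lowest mEpiSC value was well above the highest mESC value. Ifngr1 was at 5.97, 5.89, 5.51 and 7.17 FPKM in mEpiSC 1 to 4, against 3.00, 4.68, 1.88 and 2.64 FPKM in mESC 1 to 4 (log2 0.85, SE 0.21, adjusted p = 0.011). Ifnar1 was at 11.1, 9.37, 9.97 and 9.27 FPKM in mEpiSC 1 to 4, against 6.96, 7.597, 6.68 and 5.44 FPKM in mESC 1 to 4, the smallest of the 4 changes (log2 0.52, SE 0.13, adjusted p = 0.014). In none of the 4 did the states overlap. Ifnar2, Ifnar1 and Ifngr2 lie within 191 kb of chromosome 16 (91373028 to 91564252), whereas Ifngr1 is on chromosome 10. The median change of all tested genes, 0.08, became −0.01 after median ratio scaling, and each receptor remained called there (Ifnar1 at adjusted p = 0.038). With fibroblast markers as a covariate the call of Ifnar1 was lost (0.11) and the other 3 were kept.

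Stat2, which acts behind the type I receptor, was not called between states. It was at 6.57, 6.09, 7.61 and 6.496 FPKM in mEpiSC 1 to 4, against 12.2, 10.0, 10.43 and 5.73 FPKM in mESC 1 to 4, where 3 mESC libraries lay above all mEpiSC libraries and mESC 4 below them (log2 −0.42, SE 0.20, adjusted p = 0.14). Without mESC 4 (adjusted p = 0.0087) and without both replicate 4 libraries, Stat2 was lower in mEpiSC (log2 −0.62, adjusted p = 0.0081). A p above the threshold does not show equal levels.

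Of the interferon regulatory factors 1 was higher and 1 lower. Irf2, an antagonist of Irf1, was at 1.56, 1.69, 2.64 and 1.59 FPKM in mEpiSC 1 to 4, against 0.423, 0.469, 0.105 and 0.0517 FPKM in mESC 1 to 4 (log2 1.19, SE 0.18, adjusted p = 0.0014). Its mESC values rest on 5 to 68 implied fragments and did not overlap those of mEpiSC. Irf9, the DNA-binding partner of Stat2, was at 9.25, 4.49, 4.06 and 4.01 FPKM in mEpiSC 1 to 4, against 11.4, 12.9, 10.00 and 7.96 FPKM in mESC 1 to 4. EpiSC5 lay within the mESC range and the other mEpiSC libraries below it (log2 −0.89, SE 0.25, adjusted p = 0.021), and the call was lost without mESC 1, mESC 2, mEpiSC 2 or mEpiSC 3, with adjusted p up to 0.062, and with a random block per line (0.058). Irf1, an early interferon target, was at 14.3, 29.0, 16.97 and 41.2 FPKM in mEpiSC 1 to 4, against 17.7, 20.4, 13.1 and 13.9 FPKM in mESC 1 to 4, highest in EpiSC9 (adjusted p = 0.23; 0.044 with 1 mean per line). Irf3, the constitutive factor that switches on the interferon beta gene, was at 10.9, 11.98, 10.31 and 7.58 FPKM in mEpiSC 1 to 4, against 10.404, 11.1, 9.36 and 10.49 FPKM in mESC 1 to 4, nearly level across libraries apart from a lower mEpiSC 4 (log2 −0.03, SE 0.15, adjusted p = 0.89). Irf7, which amplifies the response, was at 9.96, 6.44, 3.41 and 1.67 FPKM in mEpiSC 1 to 4, against 8.90, 7.12, 4.15 and 1.57 FPKM in mESC 1 to 4. It varied more within each state than between them (log2 −0.04, SE 0.52, adjusted p = 0.96). With fibroblast markers as a covariate it was called lower in mEpiSC (log2 −1.20, adjusted p = 0.036). Irf4, Irf5 and Irf8 stayed below 1 FPKM in every library.

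Among the sensors, Ddx58 (RIG-I), which detects viral RNA ends, fell. It was at 9.499, 9.40, 7.81 and 6.37 FPKM in mEpiSC 1 to 4, against 25.5, 25.9, 20.6 and 11.4 FPKM in mESC 1 to 4, each mEpiSC library below each mESC library (log2 −1.19, SE 0.25, adjusted p = 0.0064). Tlr2, a receptor for bacterial lipoproteins, was at 1.05, 0.549, 0.471 and 0.637 FPKM in mEpiSC 1 to 4, against 4.39, 3.79, 2.17 and 1.75 FPKM in mESC 1 to 4 (log2 −1.22, SE 0.24, adjusted p = 0.0043). Ifih1 (MDA5), a sensor of long double-stranded RNA, was at 2.53, 2.48, 1.35 and 1.34 FPKM in mEpiSC 1 to 4, against 1.01, 2.18, 0.399 and 0.193 FPKM in mESC 1 to 4, with mESC 2 among the mEpiSC values (adjusted p = 0.12; 0.03 with the replicate block, log2 0.67). Without mESC 2 the adjusted p of Ifih1 was 0.021, and with 1 mean per line 0.035. The other 11 Toll-like receptors were below the filter, with a highest value of 1.06 FPKM for Tlr3 in mEpiSC 2.

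The Oas genes, a family named for enzymes that make the oligoadenylates that activate RNase L, formed the lower group. Whether each member has that activity was not tested. Oas1a was at 7.95, 6.92, 4.47 and 5.16 FPKM in mEpiSC 1 to 4, against 16.6, 18.8, 12.7 and 10.35 FPKM in mESC 1 to 4 (log2 −1.12, SE 0.22, adjusted p = 0.0044). Oas1g was at 1.33, 1.17, 0.519 and 0.593 FPKM in mEpiSC 1 to 4, against 6.95, 5.24, 6.27 and 5.14 FPKM in mESC 1 to 4 (log2 −1.88, SE 0.19, adjusted p = 0.0002). Oas1c was at 0.794, 0.812, 0.524 and 0.766 FPKM in mEpiSC 1 to 4, against 3.46, 3.31, 3.42 and 3.04 FPKM in mESC 1 to 4 (log2 −1.32, SE 0.13, adjusted p = 0.00018). In Oas1a, Oas1g and Oas1c every mEpiSC library was below every mESC library. Oasl1, an Oas relative reported in mouse to limit Irf7 translation, was at 0.448, 0.332, 0.0246 and 0.139 FPKM in mEpiSC 1 to 4, against 2.91, 1.82, 2.91 and 2.00 FPKM in mESC 1 to 4, the value of mEpiSC 3 resting on 2 implied fragments (log2 −1.46, SE 0.18, adjusted p = 0.00051). Oas2 was at 4.03, 1.79, 1.73 and 1.16 FPKM in mEpiSC 1 to 4, against 5.50, 3.63, 7.89 and 4.56 FPKM in mESC 1 to 4, with EpiSC5 inside the mESC range (log2 −1.04, SE 0.29, adjusted p = 0.021; adjusted p = 0.051 without the replicate 4 libraries). The call of Oas2 was also lost without mESC 1, mESC 3, mEpiSC 2 or mEpiSC 3, with adjusted p up to 0.061, and with a random block per line (0.07).

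The 10 Oas genes of the cluster on chromosome 5 (121180342 to 121371656) had a higher mean in mESC in 9 cases, and the states did not overlap in 5. Lower values in mEpiSC without overlap were found for 14.9% of all tested genes and 7.62% of all genes below the filter. The 9 include Oas1f and Oas1h, at no more than 0.111 FPKM in any library. Oas3 and Oas1d, both untested, were at 0.248 to 0.473 and 0.120 to 0.198 FPKM in mEpiSC and at 0.914 to 1.72 and 0.327 to 1.17 FPKM in mESC. Oas1b averaged 1.45 ± 0.437 FPKM in mEpiSC and 1.96 ± 0.652 FPKM in mESC (adjusted p = 0.37). Oasl2, next to Oasl1 but outside the cluster, was not called. Of the windows of Oas1a, 57.6% also occur in Oas1g, so the split of reads between that pair is uncertain, while 9.82% of Oas1c and 0% of Oasl1 are shared.

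The Ifitm genes, which block virus entry and of which Ifitm1 and Ifitm3 also mark primordial germ cells, included the 2 members with the highest FPKM. Ifitm3 was at 263, 345, 299 and 248.9 FPKM in mEpiSC 1 to 4, against 387, 459.6, 219 and 162 FPKM in mESC 1 to 4 (log2 0.03, SE 0.31, adjusted p = 0.96). The mESC 1 and mESC 2 values of ESF122 lay above all other libraries and mESC 4 lowest. Ifitm2 was at 163, 216, 267 and 271 FPKM in mEpiSC 1 to 4, against 178, 181, 239.6 and 261 FPKM in mESC 1 to 4 (log2 0.08, SE 0.20, adjusted p = 0.78; 48.5% of its windows are shared). Ifitm1 was at 30.1, 55.7, 60.3 and 91.6 FPKM in mEpiSC 1 to 4, against 41.0, 41.5, 55.9 and 40.3 FPKM in mESC 1 to 4 (log2 0.31, SE 0.29, adjusted p = 0.44). None of the 3 Ifitm genes was called, and the sign of the Ifitm2 and Ifitm3 changes turned after median ratio scaling (log2 −0.03 and −0.09). Isg15, a ubiquitin-like modifier, was at 61.7, 57.4, 20.9 and 33.5 FPKM in mEpiSC 1 to 4, against 31.4, 68.3, 14.2 and 9.58 FPKM in mESC 1 to 4, with libraries of both states interleaved (log2 0.73, SE 0.58, adjusted p = 0.35).

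The Ifit genes, which bind viral RNA, and Mx2 were mostly uncalled. Ifit2 was at 2.83, 2.97, 2.32 and 1.69 FPKM in mEpiSC 1 to 4, against 1.41, 1.84, 1.19 and 1.01 FPKM in mESC 1 to 4, with 1.69 FPKM in mEpiSC 4 below 1.84 FPKM in mESC 2, and was the only effector called higher (log2 0.54, SE 0.18, adjusted p = 0.039). That call was lost after median ratio scaling (adjusted p = 0.066), with fibroblast markers as a covariate (0.27), with a random block per line (0.11) and without any 1 of 6 libraries, all except mESC 2 and mEpiSC 4, with adjusted p up to 0.11. Ifit1 averaged 3.20 ± 2.53 FPKM in mEpiSC and 3.44 ± 2.11 FPKM in mESC (adjusted p = 0.88). Ifit3 averaged 3.02 ± 2.75 FPKM in mEpiSC and 1.56 ± 1.78 FPKM in mESC (adjusted p = 0.43). Mx2, an antiviral GTPase, averaged 2.21 ± 1.14 FPKM in mEpiSC and 1.08 ± 0.538 FPKM in mESC (adjusted p = 0.17; 0.03 with the replicate block, 0.037 without both replicate 4 libraries and 0.029 without mEpiSC 4 alone). Oasl2 averaged 11.003 ± 3.78 FPKM in mEpiSC and 14.7 ± 12.3 FPKM in mESC (adjusted p = 0.96).

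**Figure D3:**
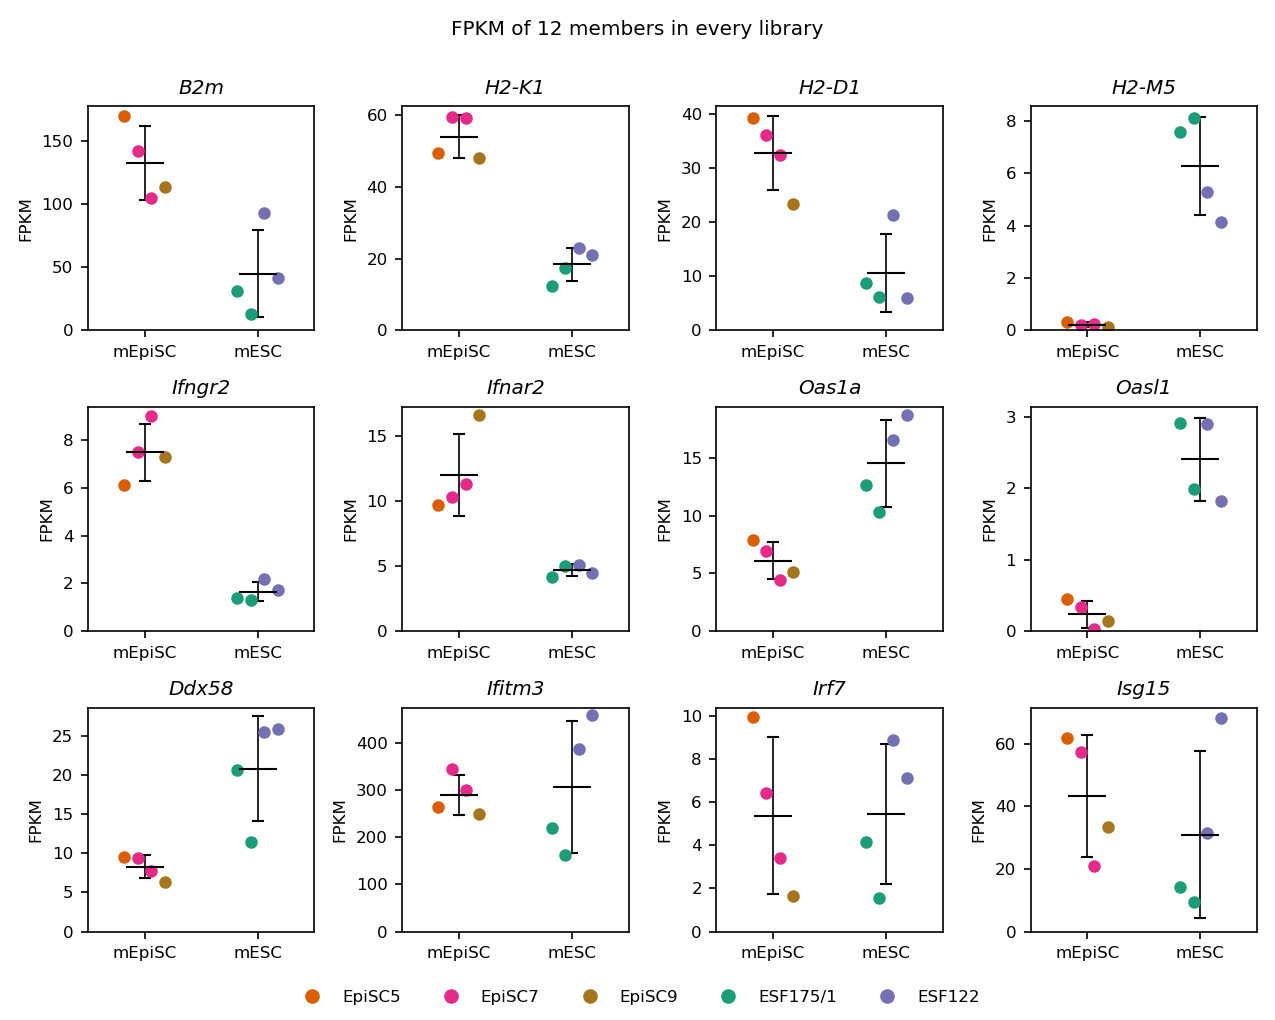
FPKM of 12 members in every library, with the mean and SD of each state (n = 4) and colours for the cell line. B2m, H2-K1, H2-D1, Ifngr2 and Ifnar2 are higher in mEpiSC, H2-M5, Oas1a, Oasl1 and Ddx58 lower, and Ifitm3, Irf7 and Isg15 interleave.

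**Figure D4:**
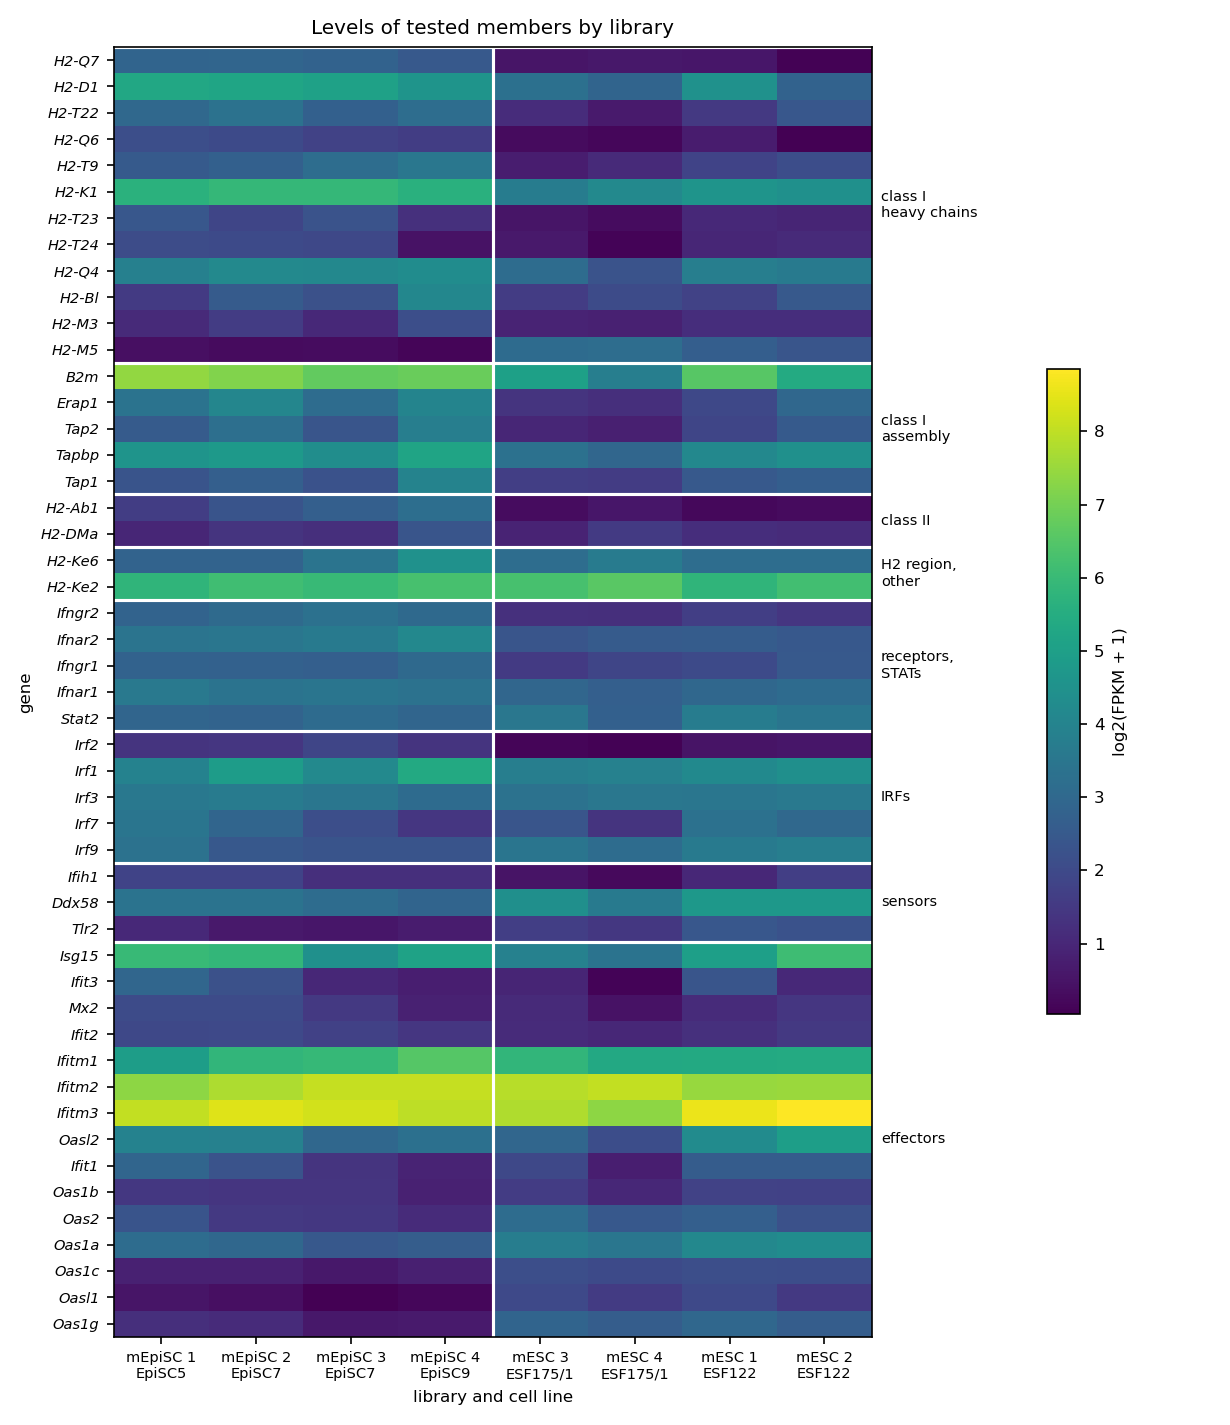
Levels of tested members as log2(FPKM + 1), with libraries and lines in columns and genes in rows, grouped by role and sorted by change. Ifitm3 and Ifitm2 are the brightest rows, and mESC 4 is the darkest mESC column for many of the effectors.

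Lines of 1 state were compared next. Between the mESC lines no member passed the limma contrast of ESF175/1 minus ESF122, beside 0.762% of all tested genes (0.346% higher and 0.415% lower in ESF175/1); 24 of 51 had an unadjusted p under 0.05, and 1723 of 11556 genes did. With 2 libraries per line the power is small. The contrast was negative for 41 of 51 members and for 6126 of all tested genes, with a median of −0.46 against −0.02. The lowest p was that of Ifitm3, at 219 and 162 FPKM in ESF175/1, against 387 and 459.6 FPKM in ESF122 (log2 −1.16, limma adjusted p = 0.076). Oasl2 was at 6.63 and 3.30 FPKM in ESF175/1, against 18.5 and 30.2 FPKM in ESF122 (log2 −2.11, adjusted p = 0.093). Isg15, given above, had the next largest log2 difference, −1.90 (adjusted p = 0.22). Without mESC 3 the contrast called 11 members and 13.0% of all genes, with the lone library mESC 4 assumed to vary like the other lines.

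The 2 libraries of ESF175/1 differed from each other. In mESC 4 the value lay below the mean of its state for 41 of 51 members (80.4%), beside 47.2% of all tested genes, and for 17 of 18 effectors and sensors. It was the lowest mESC library for 33 members (64.7%), beside 32.2% of all genes. In mESC 3 the same share below the mean was 70.6%, beside 62.8%. In mESC 1 and mESC 2 it was 15.7% and 29.4%, beside 56.5% and 40.3%. Fibroblast markers were also lowest in mESC 4 and highest in mESC 1, with mean log2 levels of 0.58 and 3.55, while mESC 2 and mESC 3 had 1.58 and 1.82; their part was not tested.

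Among the mEpiSC lines 3 of 51 members passed the F test (limma, adjusted p under 0.05), beside 2.6% of all tested genes, and each stood out in EpiSC9, of which there is 1 library. EpiSC5 and EpiSC9 have 1 library each and are assumed to vary like EpiSC7 and the mESC lines, from which the spread was estimated. Tap1 and H2-Bl were high there and H2-T24 low, with the values given above (adjusted p = 0.045, 0.049 and 0.049). No member was called without mESC 1, mESC 2, mEpiSC 2, mEpiSC 3 or mEpiSC 4, 2 were without mEpiSC 1, and 10 without mESC 3 or without mESC 4. The effectors and sensors lay above the mean of the state for 15 of 18 members in EpiSC5 and in mEpiSC 2, and below it for 14 in mEpiSC 3 and 15 in EpiSC9. The share below the mean was 16.7%, 16.7%, 77.8% and 83.3% in mEpiSC 1 to 4, beside 56.3%, 50.9%, 51.5% and 43.7% of all tested genes. Both EpiSC7 libraries, mEpiSC 2 and mEpiSC 3, thus fell on opposite sides. Irf7 had 9.96 FPKM in EpiSC5, 6.44 and 3.41 FPKM in EpiSC7 and 1.67 FPKM in EpiSC9. Fibroblast markers fell in the same order, with mean log2 levels of 4.61, 3.77, 3.13 and 2.48 in mEpiSC 1 to 4. Their part was not tested.

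**Figure D5:**
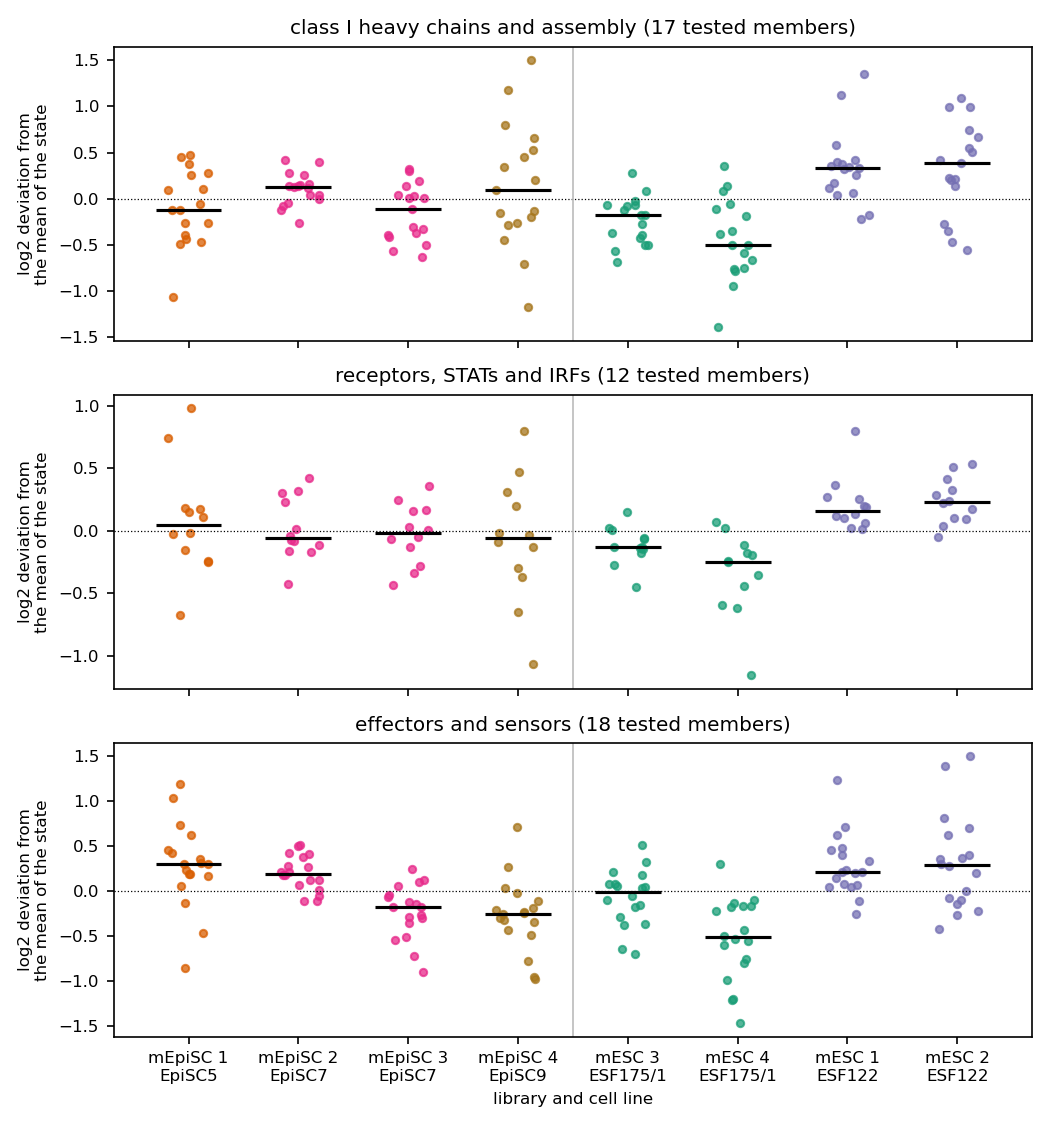
Deviation of each tested member from the mean of its state (log2(FPKM + 1)) by library, in 3 groups of roles; each point is a gene, the bar is the median, and colours mark lines. In mESC 4 the medians are −0.50, −0.25 and −0.51, the lowest of the 4 mESC libraries in each panel.

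Other genes of these pathways, from lists of genes that are no members, were read from the same fit. In antigen presentation 2 of 12 tested genes were higher and none lower; in interferon signalling 3 of 9 were higher and 2 lower. Of other interferon-induced genes 3 of 18 were higher and 1 lower, and of other sensing genes 4 of 9 were higher and none lower. Psmb8 and Psmb9 are in both the antigen presentation and the interferon-induced list, so Psmb8 counts as higher in each. Of all tested genes 23.1% were higher and 14.2% lower. Psmb8, a catalytic subunit of the immunoproteasome, rose most, at 19.2, 27.1, 10.0 and 56.1 FPKM in mEpiSC 1 to 4, against 4.25, 10.51, 1.49 and 1.80 FPKM in mESC 1 to 4 (log2 2.43, limma adjusted p = 0.011). Gbp2, a guanylate-binding protein induced by interferon gamma, averaged 21.7 ± 18.3 FPKM in mEpiSC and 2.76 ± 1.27 FPKM in mESC (log2 2.31). Gbp3, of the same family, averaged 7.35 ± 2.89 FPKM in mEpiSC and 1.54 ± 0.493 FPKM in mESC (log2 1.67). Trim25, the ubiquitin ligase that activates RIG-I, fell most, at 6.09, 1.35, 0.711 and 23.1 FPKM in mEpiSC 1 to 4, against 48.3, 45.3, 46.2 and 33.6 FPKM in mESC 1 to 4 (log2 −3.10, adjusted p = 0.0093). Among mEpiSC lines EpiSC9 lay closest to the mESC range. Tyk2, a kinase of the Jak family, and Ptpn2, a phosphatase that limits Jak signalling, fell less (log2 −0.47 and −0.39). The Jak kinases Jak1 and Jak2, chosen after their values were seen, rose by log2 0.49 and 1.18. Interferon gamma itself (Ifng) was listed at 0 in every library, and Ifnb1 averaged 0.00865 FPKM in mEpiSC and was listed at 0 in mESC.

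Of the 51 members below the filter, 34 stayed under 0.5 FPKM in every library and 6 were listed at 0 in all 8: H2-Ea-ps, H2-M1, H2-M10.1, H2-M10.3, H2-M10.5 and H2-M11. By role the untested were 18 heavy chains and relatives (highest, H2-Q2 at 2.50 FPKM in mEpiSC 4), 8 class II entries (H2-Oa), 11 sensors, 10 effectors (highest, Isg20 at 3.08 FPKM in mEpiSC 4), 3 Irf genes and Nlrc5. The states did not overlap for 9 of them, 4 higher (7.84%) and 5 lower (9.80%) in mEpiSC, beside 9.19% and 7.62% of all genes below the filter. H2-Oa, H2-Q8, H2-Q9 and H2-Eb2 were higher in mEpiSC, and Irf5, Ifitm7, H2-T3, Oas1d and Oas3 lower. H2-Q9, on the interval of H2-Q7, had too little data in every library by the deposited status. Fitted without a filter, 17 of 102 members were higher and 9 lower, beside 11.8% and 8.31% of all 22987 genes. That fit shared 14 of the 19 higher calls and 7 of the 9 lower calls of the filtered fit. B2m, H2-Q4, Ifit2, Tap2, Tapbp, Irf9 and Oas2 lost their calls there. H2-Oa, H2-Q8 and H2-Q9 were called higher instead, and H2-T3 and Oas3 lower.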

How the data were processed

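Polyadenylated RNA of 4 mEpiSC and 4 mESC libraries was sequenced after TruSeq preparation, per the labels' protocols. The authors deposited FPKM for each gene in 1 table per library, beside interval bounds and a status; TopHat2 2.0.6, Cufflinks 2.0.2 and mm9 are named in the submitters' processing notes. Which annotation, options and strand setting were chosen is not given in the sources used here. Replicates were not pooled, and 0 columns were unused.

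Each table lists 23699 entries; 248 symbols at several loci were left out, none of them a member. FPKM are not counts, so limma 3.58.1 (trend and robust, statmod 1.5.0, R 4.3.3) was fitted to log2(FPKM + 1) of the 11556 genes that reached 1 FPKM or more in 4 or more libraries, and p-values were adjusted over all of them. The step was tested on simulated data. Values whose intervals implied under 100 fragments came out whole for 80.2% to 81.0% (tolerance 0.05), so fragment numbers are estimates, and no count test was run. Lines were compared with 1 mean per line.

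Deviations from group means correlated at 0.22, 0.15, 0.18 and 0.51 for libraries with the same replicate number, all above 0.1, so the number was also used as a block; the pairing comes from the data, since the labels give those libraries different lines. By this measure mESC 2 correlated more with mEpiSC 3 (0.19), and mESC 3 with mEpiSC 2 (0.21).

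Per-library values are given for called members and for a fixed set of core genes; every other tested member is named except 2 that are not reported here, which stay in the counts and out of the figures that name genes, and of the genes that are no members the 3 that changed most each way past the test. The members and lists were chosen with earlier results of these data known. Shared 50-base windows were counted in GENCODE vM21 transcripts for 99 of 102 members, with no coordinates taken.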

Additional observations from a re-analysis of the deposited data

Results flagged for a closer look

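Within 9 of 102 groups of 4 libraries (51 tested members in 2 states), 1 library lay farther from the nearest of the other 3, relative to the range of the 4, than Dixon's critical value at the 95% level. By that level about 1 in 20 groups would be flagged for independent normal values. FPKM of genes in the same libraries are not such values, and the share flagged over all tested genes was not counted. Of the 9 groups 3 were flagged for mEpiSC 4, the only library of EpiSC9. Among all tested genes mEpiSC 4 was the highest mEpiSC library for 42.8% and the lowest for 31.2%. H2-Ke6 was highest in mESC 4 at 11.9 FPKM, where the nearest of the other mESC libraries had 8.04 FPKM. H2-Q7 was lowest in mESC 2 at 0.0731 FPKM, where the nearest of the other mESC libraries had 0.449 FPKM. H2-T24 was lowest in mEpiSC 4 at 0.375 FPKM, where the nearest of the other mEpiSC libraries had 2.86 FPKM. Ifitm1 was highest in mESC 3 at 55.9 FPKM, where the nearest of the other mESC libraries had 41.5 FPKM. Irf2 was highest in mEpiSC 3 at 2.64 FPKM, where the nearest of the other mEpiSC libraries had 1.69 FPKM. Irf9 was highest in mEpiSC 1 at 9.25 FPKM, where the nearest of the other mEpiSC libraries had 4.49 FPKM. Oas1b was lowest in mEpiSC 4 at 0.798 FPKM, where the nearest of the other mEpiSC libraries had 1.60 FPKM. Oas1c was lowest in mEpiSC 3 at 0.524 FPKM, where the nearest of the other mEpiSC libraries had 0.766 FPKM. Tap1 was highest in mEpiSC 4 at 14.8 FPKM, where the nearest of the other mEpiSC libraries had 5.46 FPKM.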

How the results depend on the processing

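Under the 20 alternatives 0 of the 28 called fold changes between states turned sign, and 13 of the 23 uncalled ones did under at least 1. Of the calls 19 were kept under every alternative in which the member was tested, 12 higher and 7 lower. These include H2-Q6, H2-Q7, H2-Ab1, Irf2, H2-M5, Oas1c and Oasl1, which passed the filter through the state in which they were high. The share of all called genes that were kept was not counted, so the count of kept calls is a description. The 19 higher and 9 lower members became 8 and 3 with a mean of at least 5 FPKM, where 24 members were tested, and 12 and 10 with fibroblast markers as a covariate. Leaving out 1 library gave 15 to 20 higher and 7 to 10 lower members. A replicate block gave 21 higher and 9 lower members; the block changed no call beyond those of H2-Q4, H2-T24, Ifih1 and Mx2. With 1 mean per line 25 were higher and 9 lower, and with the line as a random block 15 and 7. The members that 1 mean per line added were H2-Bl, H2-M3, H2-T24, Ifih1, Irf1 and Tap1. With the line as a random block each of them stayed uncalled, at a limma adjusted p of 0.18 to 0.43. Between the mESC lines the count stayed at 0 under the other settings and at 0 to 11 when 1 library was left out. Among the mEpiSC lines the 3 calls became 0 with a pseudocount of 0.1, a mean of at least 5 FPKM or median ratio scaling, 1 after quantile normalization, 5 with a pseudocount of 5 or without a filter, and 0 to 10 when 1 library was left out; the cause was not tested. Median ratio scaling moved the split of all genes from 23.1% higher and 14.2% lower to 19.8% and 19.0%. Levels of single H2 Q and T genes and of Oas1a and Oas1g are limited by shared sequence, and values of a few fragments by depth.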
